A study of Mus musculus with 14 samples.

Results

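The enzymes Cpt1a, Cpt2, Ehhadh, Hadha, Hadhb, Acadm, Acadl and Acadvl carry fatty acids into the mitochondrion or shorten them by beta-oxidation. Of these, Ehhadh acts in the peroxisome and the others in the mitochondrion. These 8 genes were taken by gene symbol from the deposited gene count tables, where they are 8 of 19660 genes in liver and 8 of 20203 in kidney. All 8 were tested in both tissues, among 15130 liver genes and 15847 kidney genes that passed a filter on low counts. The RNA came from male transgenic mice, 12 weeks old, of the genotype Hap -6A, a haplotype of the human angiotensinogen gene, and all 14 libraries share that genotype. The groups were liver on Normal Diet (n = 4), liver on High Salt (n = 4), kidney on Normal Diet (n = 3) and kidney on High Salt (n = 3). There was no library without the transgene, and the sources used here do not give the salt dose, its duration or whether the animals were fed or fasted at collection.

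Long chain fatty acids enter mitochondria as carnitine esters, which Cpt1a forms on the outer membrane and Cpt2 turns back into acyl-CoA inside. An acyl-CoA dehydrogenase then starts each turn of the cycle, and Acadvl, Acadl and Acadm differ in the chain length they prefer, from very long to medium. Hadha and Hadhb are the alpha and beta subunits of the mitochondrial trifunctional protein, which carries out the other steps of the cycle on long chains. Ehhadh is the bifunctional enzyme of the peroxisomal pathway, where very long chains and dicarboxylic acids are shortened. In liver the acetyl-CoA that results can be made into ketone bodies, and no enzyme of ketone body synthesis is among the 8 genes. In the kidney, fatty acids are a main fuel of the proximal tubule. Many of these genes are known targets of the fasting-activated receptor PPAR-alpha.

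Libraries are named by tissue, diet and number. High salt liver columns carry the numbers HS5 to HS8, which match no sample title, so they are replicates without a number of their own. Total expected counts ran from 37267778 to 51487382 in liver and from 16046094 to 22004927 in kidney. Normal diet liver libraries 1 and 2 stood apart: transcripts of the mitochondrial genome took 2.30% and 2.06% of their counts, against 11.3% to 29.6% in the other 6 liver libraries, and the first principal component, with 43.5% of the variance, set them apart from all others. Normal diet liver library 4 had 61282 CPM (counts scaled to the library's total, after TMM scaling of that total) of acute phase transcripts, against 1672 to 5618 in the other 7. HS5 and HS6 differed from each other by a chi-square of 1.59 per gene, against 9.83 to 62.8 in other liver pairs of the same diet. Fits without some of these libraries are given beside several of the results. The correlations, the levels per kilobase and the diet tests of the Hadha to Hadhb ratio are given with all libraries only. The 5 hepatocyte markers summed to 50434 to 106501 CPM in liver and to 36.7 to 103 CPM in kidney, and the 6 proximal tubule markers to 1966 to 3365 CPM in kidney and to at most 8.06 CPM in liver, so both tissues matched their labels. Nothing in the labels says whether libraries of 1 group came from separate animals, so p-values measure the spread between libraries.

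Genome positions below are on GRCm38, the assembly also called mm10, from the GENCODE M21 annotation. Cpt1a lies at chr19:3322334-3385733 on the plus strand, Cpt2 at chr4:107903981-107923610, Ehhadh at chr16:21761287-21787807, Acadm at chr3:153922357-153944632, Acadl at chr1:66830839-66863277 and Acadvl at chr11:70010183-70015411, all on the minus strand except Cpt1a. Hadha, at chr5:30118304-30155162 on the minus strand, and Hadhb, at chr5:30155248-30184593 on the plus strand, lie head to head with 85 bases between them. In RefSeq (GRCm38.p6) their start sites are 273 bases apart, at 30154980 and 30155253. Windows from 250 bases before to 50 bases after each RefSeq start were found for all 8 genes, and the windows of Hadha and Hadhb share 228 bases, chr5:30155003-30155230. The Hadhb window is printed because it holds most of the Hadha window on the other strand and the 2 genes encode 1 complex. The windows of Acadvl and Acadm are printed because their transcripts lay at opposite ends of the liver to kidney comparison, and those of Cpt1a and Ehhadh because their transcripts lay at opposite ends among the liver libraries. Capitals mark a GC box (GGGCGG) or a CCAAT box (CCAAT) on either strand, and each window is written 5′ to 3′ on the strand of its gene.

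Hadhb, chr5:30155003-30155302, plus strand: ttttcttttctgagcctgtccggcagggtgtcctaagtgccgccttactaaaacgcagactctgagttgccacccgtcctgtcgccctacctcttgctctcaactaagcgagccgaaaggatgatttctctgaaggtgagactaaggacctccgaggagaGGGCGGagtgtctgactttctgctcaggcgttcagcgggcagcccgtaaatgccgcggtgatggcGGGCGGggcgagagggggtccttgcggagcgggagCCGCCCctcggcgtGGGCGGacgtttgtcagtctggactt
Acadvl, chr11:70015379-70015678, minus strand: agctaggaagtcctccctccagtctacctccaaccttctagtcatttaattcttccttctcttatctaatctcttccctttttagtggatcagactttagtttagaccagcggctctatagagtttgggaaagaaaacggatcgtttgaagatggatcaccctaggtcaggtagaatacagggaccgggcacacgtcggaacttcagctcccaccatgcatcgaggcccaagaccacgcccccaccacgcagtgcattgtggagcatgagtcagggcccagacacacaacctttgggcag
Acadm, chr3:153944594-153944893, minus strand: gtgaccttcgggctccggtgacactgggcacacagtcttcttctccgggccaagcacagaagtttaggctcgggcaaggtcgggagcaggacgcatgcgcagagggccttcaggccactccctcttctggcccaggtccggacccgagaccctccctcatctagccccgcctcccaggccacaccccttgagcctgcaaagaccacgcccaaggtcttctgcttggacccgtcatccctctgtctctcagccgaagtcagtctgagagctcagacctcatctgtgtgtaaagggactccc
Cpt1a, chr19:3323051-3323350, plus strand: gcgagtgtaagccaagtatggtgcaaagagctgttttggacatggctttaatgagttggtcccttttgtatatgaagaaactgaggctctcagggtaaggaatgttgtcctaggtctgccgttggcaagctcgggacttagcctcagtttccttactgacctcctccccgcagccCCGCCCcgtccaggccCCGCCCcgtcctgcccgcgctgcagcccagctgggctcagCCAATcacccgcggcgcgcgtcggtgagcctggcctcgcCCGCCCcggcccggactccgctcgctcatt
Ehhadh, chr16:21787785-21788084, minus strand: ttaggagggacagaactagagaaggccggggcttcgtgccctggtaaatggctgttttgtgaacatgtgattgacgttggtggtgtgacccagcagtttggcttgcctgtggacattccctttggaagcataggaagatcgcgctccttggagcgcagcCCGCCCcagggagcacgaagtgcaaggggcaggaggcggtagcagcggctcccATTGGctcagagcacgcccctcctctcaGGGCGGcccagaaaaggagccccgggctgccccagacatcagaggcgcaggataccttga

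A GC box was found in 6 of the 8 windows and in 35.7% of all 32851 RefSeq windows. The only Hadha box, 188 bases before its start, and the Hadhb box 90 bases before its start are 1 site, in the stretch that both windows share. Acadm and Acadvl are the members with none. A CCAAT box was found in 2 of the 8, Cpt1a at 19 bases and Ehhadh at 38 bases before the start, and in 37.4% of all windows. The direct repeat that PPAR-alpha binds with its partner RXR was searched as AGGTCA followed by any base and AGGTCA again, which was in 0 of the 8 windows and in 0.0396% of all. A loose form, with AGGNCA in both places, was in 0 of the 8 and in 0.381% of all. TCAAGGTCA, the element of the estrogen-related receptors (0.423% of all windows), the NRF1 element, GCGCA and GCGC with 1 base between (4.6%), the E-box CACGTG (7.15%) and TATAAA (13.6%) were each in 0 of the 8. Windows were searched on both strands, the loose direct repeat includes the strict one, and a window without these letters says nothing of sites elsewhere. The members' windows held 50.7% to 70.3% G and C, and the median of all windows was 52.7%.

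In liver none of the 8 enzymes passed the test for diet, and for all 8 the libraries of both diets overlapped. The fitted differences were small, from -0.18 (Cpt2) to 0.09 (Hadha) on the log2 scale. Of all 15130 genes tested, 152 were called (1%), 90 higher (0.595%) and 62 lower (0.41%) on high salt, by edgeR's quasi-likelihood test at an adjusted p under 0.05. The median difference of the 8 was -0.08 and that of all genes tested -0.02, and the libraries of both diets did not overlap for 12.5% of all genes.

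Cpt1a, the entry step that malonyl-CoA inhibits, had the largest coefficient of variation over the 8 libraries, 31.7%. It was at 181, 157, 287 and 373 CPM in normal diet libraries 1 to 4 and at 275, 266, 159 and 207 CPM in HS5 to HS8. The highest and the lowest of all 8 libraries were both normal diet libraries. The mean was 249.6 ± 99.9 CPM without and 226.6 ± 54.2 CPM with high salt (SD over 4 libraries each), so the log2 fold change was -0.14 (SE 0.30, 95% interval -0.80 to 0.52, edgeR adjusted p = 0.811). Cpt2, on the inner membrane, was steadier, at 122, 110, 121 and 142 CPM on the normal diet against 116, 120, 100 and 101 CPM. Its values lay close together, with HS7 and HS8 lowest and normal diet library 4 highest. Its log2 fold change was -0.18 (SE 0.15, 95% interval -0.50 to 0.15, edgeR adjusted p = 0.495).

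Hadha, the subunit that hydrates and then oxidises the chain, was at 218, 186, 201 and 192 CPM on the normal diet against 237, 231, 183 and 198 CPM. HS5 and HS6 were highest and HS7 lowest, so high salt libraries lay on both sides of the normal diet ones. Hadhb, the subunit with the thiolase that releases acetyl-CoA, was at 72.04, 71.4, 63.0 and 53.5 CPM against 61.5, 64.0, 68.9 and 53.6 CPM, and the lowest library of each diet stood at nearly the same level. The log2 fold changes were 0.09 (95% interval -0.25 to 0.43) for Hadha and -0.07 (95% interval -0.41 to 0.27) for Hadhb.

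Among the acyl-CoA dehydrogenases, Acadvl was the steadiest, at 347, 347, 288 and 322 CPM against 324, 320, 299 and 278 CPM. Over the 8 libraries its highest value was 1.25 times its lowest. Acadm, the medium chain enzyme, was at 309, 293, 216 and 184 CPM against 234, 228, 247 and 250 CPM. The 4 high salt libraries lay within the range of the normal diet ones, between libraries 1 and 2 above and 3 and 4 below. Acadl, the long chain enzyme, was at 196, 183, 127 and 129 CPM against 151, 142, 178 and 128 CPM, and it too was high in normal diet libraries 1 and 2 and low in 3 and 4. The log2 fold changes were -0.09 (95% interval -0.43 to 0.24) for Acadvl, -0.06 (-0.49 to 0.36) for Acadm and -0.08 (-0.52 to 0.35) for Acadl, with edgeR adjusted p from 0.743 to 0.872.

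Ehhadh, the peroxisomal enzyme, was at 265, 278, 192 and 98.6 CPM against 211, 206, 234 and 217 CPM. Its highest library was 2.82 times its lowest, the widest range of the 8 in liver. The 4 high salt libraries lay close together, with a coefficient of variation of 5.55%, and that of the normal diet libraries was 39.5%, with library 4 far below the rest. The log2 fold change was 0.06 (SE 0.28, 95% interval -0.58 to 0.69, edgeR adjusted p = 0.926). By these intervals, a rise or fall within the bounds given for each enzyme could not be told from the spread between libraries. The widest on the log2 scale were those of Cpt1a, 0.574 to 1.44 times its normal diet level, and of Ehhadh, 0.670 to 1.62 times.

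**Figure D1:**
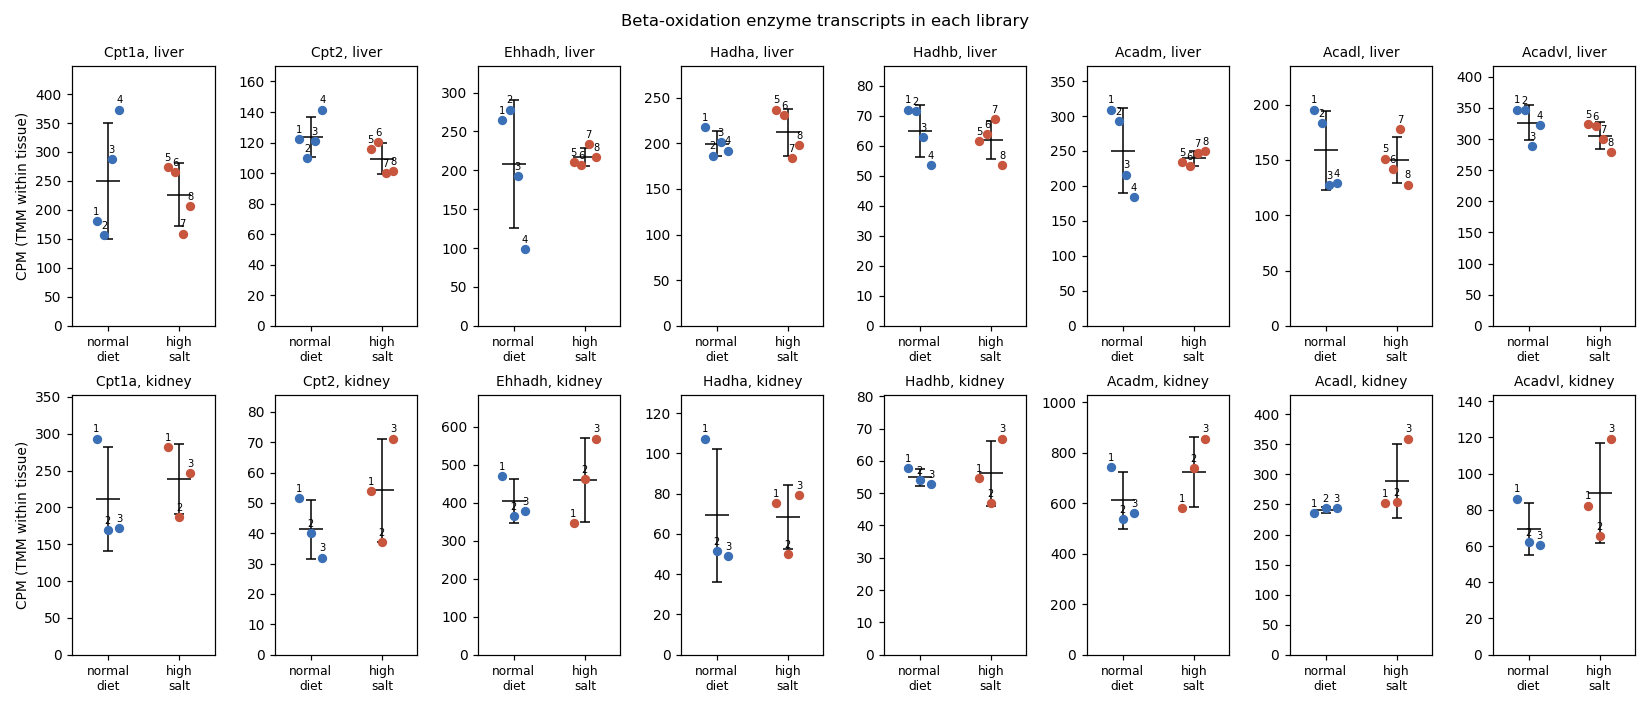
CPM (vertical axes, from 0, scaled within each tissue) of the 8 beta-oxidation enzyme transcripts in liver (top) and kidney (bottom), by diet. Each point is 1 library with its number (5 to 8 are HS5 to HS8), and bars are the mean and SD (n = 4 per diet in liver, 3 in kidney). The diets overlap for every transcript except Acadl in kidney.

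**Figure D2:**
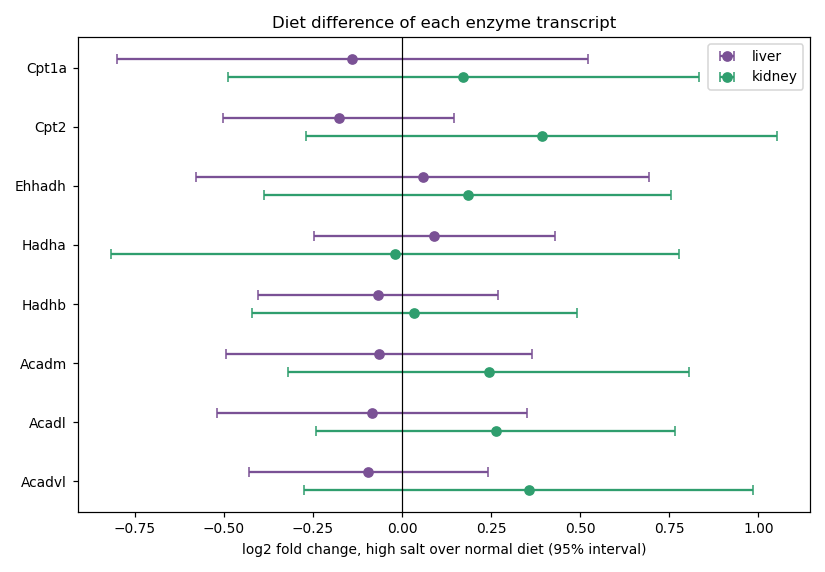
Log2 fold change of high salt over normal diet (horizontal axis) for each transcript in liver and kidney, with 95% intervals from the edgeR fits (n = 4 per diet in liver, 3 in kidney). All 16 intervals cross 0.

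The levels of the liver libraries followed opposite orders for different members, whatever the diet. Across the 8 libraries Ehhadh and Acadm went together (r = 0.90, rho = 0.95) and Hadhb and Acadl went together (r = 0.87, rho = 0.79). Cpt1a ran against Acadm (r = -0.87, rho = -0.86) and against Ehhadh (r = -0.85, rho = -0.95), and its nearest member was Cpt2 (r = 0.76, rho = 0.64). These correlations of log2 CPM describe 8 libraries that share their scaling and, for HS5 and HS6, nearly the same profile. The ratio of Cpt1a to Ehhadh CPM was 0.684 and 0.563 in normal diet libraries 1 and 2, 1.49 in library 3 and 3.78 in library 4. On high salt it was 1.30, 1.29, 0.681 and 0.953 in HS5 to HS8. Library 4, with the highest ratio, is also the one with the high acute phase sum, and libraries 1 and 2, with the lowest ratios on that diet, are those with few mitochondrial genome transcripts. The part of either in these levels was not tested.

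**Figure D3:**
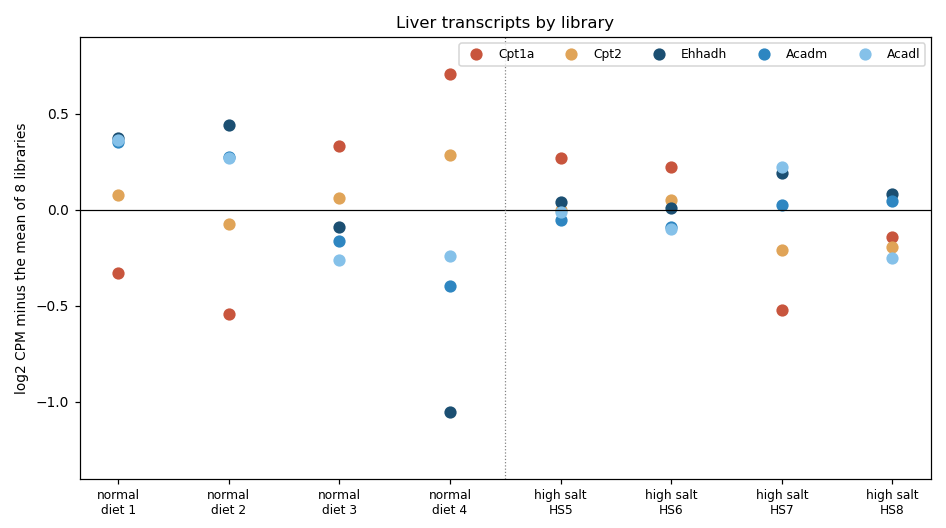
Log2 CPM of 5 transcripts in each liver library, minus the transcript's mean over the 8 libraries. Points right of the dotted line are high salt. In normal diet libraries 1 and 2 and in HS7, Cpt1a lies below Ehhadh, Acadm and Acadl, and in normal diet libraries 3 and 4 and in HS5 and HS6 above them.

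The sign of the diet difference turned with the normal diet libraries used. Without libraries 1 and 2 the log2 fold change was -0.54 for Cpt1a, 0.58 for Ehhadh, 0.26 for Acadm and 0.23 for Acadl, and none passed (edgeR adjusted p from 0.339 to 0.575). Without libraries 3 and 4 it was 0.40 for Cpt1a. Ehhadh was then at -0.34 (edgeR adjusted p = 0.0494) and Acadm at -0.35 (edgeR adjusted p = 0.0431), in a fit that called 6338 genes in all. These 2 of 8 members called lower stand beside 19.6% of all genes called lower in that fit. It kept only normal diet libraries 1 and 2, those with few mitochondrial genome transcripts, and was chosen after seeing the data. Without library 4 alone, Cpt1a was at 0.11 and Ehhadh at -0.19. The direction of Cpt2 and Hadha was the same in all of these fits.

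In the lists of related genes, edgeR called 3 of 95 liver genes tested, beside 1% of all genes, and DESeq2 called 13 of the 95, beside 7.42% of all genes. Crat, carnitine acetyltransferase, which moves acetyl groups between CoA and carnitine, rose on high salt. Its mean went from 12.6 ± 3.06 to 32.5 ± 9.87 CPM (SD over 4 libraries each), with a log2 fold change of 1.37 (SE 0.26, edgeR adjusted p = 0.0449). Acaca, acetyl-CoA carboxylase 1, which makes malonyl-CoA, rose from 35.4 ± 11.9 to 128.6 ± 15.5 CPM (log2 fold change 1.86, SE 0.24, edgeR adjusted p = 0.0130). Pccb, a subunit of the propionyl-CoA carboxylase that takes up the end product of odd chains, fell from 192.7 ± 10.9 to 117.6 ± 5.45 CPM (log2 fold change -0.71, SE 0.13, edgeR adjusted p = 0.0440). For all 3 the diets did not overlap. With HS5 and HS6 summed to 1 library the edgeR adjusted p was 0.176 for Crat, 0.0609 for Acaca and 0.191 for Pccb, so all 3 calls were lost, with log2 fold changes of 1.25, 1.84 and -0.71. Leaving out normal diet library 1 or 2, or HS8, also ended the calls of Crat and Pccb, with edgeR adjusted p from 0.0991 to 0.157. The sum of 5 hepatocyte markers was also higher on high salt, at 88621 to 106501 CPM against 50434 to 77059. Of the 5, Alb, the albumin gene, was higher without overlap (67824 to 85226 against 32441 to 50637 CPM), Serpina1c was lower without overlap (5326 to 6950 against 7776 to 11893 CPM), and Apoa1, Ttr and Cps1 overlapped between the diets. Immune markers summed to 47.3 to 86.9 CPM against 75.0 to 170.8. The part of these in the calls was not tested, and in bulk RNA fewer cells of a type and less RNA per cell cannot be told apart.

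The other listed genes did not pass in edgeR. Of 19 further mitochondrial genes listed with beta-oxidation, 17 had a negative log2 fold change and 1, Pccb, passed. Their median was -0.35 against -0.02 over all genes. The list also holds Pcca, Pccb, Mcee and Mmut, of the propionyl-CoA pathway, which are not beta-oxidation enzymes themselves. Without normal diet libraries 1 and 2, 9 of the 19 were negative and the median was 0.0017. Without normal diet libraries 3 and 4, 18 of the 19 were negative, 12 were called lower, beside 19.6% of all genes, and the median was -0.63. Acads, the short chain dehydrogenase, was at 169.8 ± 55.8 against 126.8 ± 11.6 CPM (edgeR adjusted p = 0.339) and Acaa2, the mitochondrial thiolase, at 748.9 ± 149.7 against 680.1 ± 63.7 CPM (0.707). Of 18 genes of fatty acid uptake, activation and the carnitine shuttle, 1 passed, Crat, and the median was -0.16. The carnitine carrier Slc25a20 was at -0.38 on the log2 scale (edgeR adjusted p = 0.257). Of 18 peroxisomal genes none passed, with 10 negative and 8 positive values (8 and 10 with upper quartile scaling).

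Of 9 genes of ketone body synthesis and use none passed, with a median of 0.04. Bdh1, the enzyme that makes 3-hydroxybutyrate, had a log2 fold change of -0.12 (SE 0.22, edgeR adjusted p = 0.783). Of 17 regulators 1 passed, Acaca, with a median of 0.28. Ppara itself, the receptor gene, was at 32.7 ± 5.49 against 46.3 ± 14.9 CPM (log2 fold change 0.50, edgeR adjusted p = 0.284). Acacb, the mitochondrial acetyl-CoA carboxylase, was at 21.6 ± 12.7 against 98.4 ± 39.4 CPM with no overlap, and its log2 fold change of 2.18 (SE 0.45) did not pass (edgeR adjusted p = 0.0563). It passed in 7 of 21 alternatives, among them DESeq2 (adjusted p = 4.8e-05), the fit of all 14 libraries (edgeR adjusted p = 0.0108) and the fits without normal diet library 3 (edgeR adjusted p = 0.0486) or 4 (edgeR adjusted p = 0.0317). Of 14 other PPAR-alpha targets none passed in edgeR and 3 in DESeq2. Fgf21, a fasting hormone of the liver, was at 0.24 ± 0.20 against 2.04 ± 2.32 CPM without overlap (log2 fold change 3.09, SE 0.89, edgeR adjusted p = 0.117). It passed with DESeq2 (adjusted p = 0.00448) and without normal diet libraries 3 and 4 (log2 fold change 4.70, edgeR adjusted p = 0.0287). Pdk4 was at 1.656 ± 1.152 against 2.51 ± 0.97 CPM (edgeR adjusted p = 0.459). Without those 2 libraries Acads, Slc25a20 and Pdk4 passed too, with log2 fold changes of -0.77, -0.64 and 1.34. That fit was chosen after seeing the data and called 6338 genes in all. Over all 95 genes, 28 had an unadjusted p under 0.05, beside 21.2% of all genes tested.

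In kidney no member passed, and no gene of the whole table did. Of 15847 genes tested, 0 were called (0%), with 318 at an unadjusted p under 0.05 (2.01%), by edgeR, and DESeq2 called 11. Fitted differences of the members ran from -0.02 (Hadha) to 0.39 (Cpt2) on the log2 scale, 7 of the 8 were above 0 (8 with upper quartile scaling), and their median was 0.21 against -0.02 for all genes. Each had an edgeR adjusted p of 0.9996, and 0 of the 8 had an unadjusted p under 0.05.

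In kidney Cpt1a was at 294, 169 and 172 CPM in normal diet libraries 1 to 3 and at 282, 187 and 247 CPM in high salt libraries 1 to 3. Cpt2 was at 51.7, 40.1 and 32.0 CPM against 53.9, 37.2 and 71.2 CPM. In both transcripts, the 3 highest were normal diet library 1, high salt library 1 and high salt library 3. Hadha was at 107, 51.5 and 48.8 CPM against 75.5, 49.97 and 79.3 CPM, with the same 3 libraries on top. Hadhb was steadier, at 57.9, 54.0 and 52.7 CPM against 54.7, 46.9 and 66.9 CPM. High salt library 2 was lowest and high salt library 3 highest, so the normal diet libraries lay between them.

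Acadvl was at 86.2, 62.1 and 60.7 CPM against 82.4, 65.5 and 119 CPM, again with those 3 libraries highest. Acadm, the most abundant member in kidney, was at 741, 535 and 559 CPM against 579, 738 and 856 CPM, and Ehhadh was at 470, 365 and 378 CPM against 348, 461 and 569 CPM. These 2 went together (r = 0.97, rho = 0.83 over 6 libraries), and in both of them high salt library 3 was highest. Acadl was at 236, 243 and 243 CPM against 253, 254 and 360 CPM, and it was the only member whose diets did not overlap, beside 6.92% of all genes. Its log2 fold change was 0.26 (SE 0.22, 95% interval -0.24 to 0.77), and high salt library 3 alone lay far above the rest: without it the value was 0.07. The widest interval was that of Hadha, -0.82 to 0.78.

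The first principal component of kidney, with 53.9% of the variance, set normal diet library 1, high salt library 1 and high salt library 3 against the other 3. Proximal tubule markers, all 6 of which were detected, summed to 3365, 2060 and 1966 CPM against 2997, 2292 and 2772 CPM, with those same 3 libraries highest. Slc34a1, Lrp2, Slc22a6 and Cubn were each highest in those 3. Slc5a2 and Slc5a12 were instead highest in normal diet library 2 (73.0 and 88.9 CPM) and lowest in high salt library 3 (52.4 and 54.7 CPM). The 5 distal tubule and collecting duct markers summed to 3198, 2288 and 2391 CPM against 2476, 2030 and 2499 CPM, again highest in those 3 libraries. The 9 immune markers summed to 32.6, 171.8 and 144.8 CPM against 54.8, 83.2 and 86.01 CPM. The part of these in the members' levels was not tested. Without normal diet library 1, Cpt1a was at 0.48, Hadha at 0.45, Cpt2 at 0.60 and Acadvl at 0.54 on the log2 scale, and none passed. In the lists of related genes 0 of 93 tested in kidney were called, by edgeR or by DESeq2, and 1 had an unadjusted p under 0.05 in edgeR. Acaca was at 7.66 ± 3.85 against 7.83 ± 2.21 CPM, Crat at 45.3 ± 13.9 against 47.5 ± 8.27 CPM and Pccb at 166.0 ± 26.7 against 177.6 ± 29.5 CPM (SD, n = 3 each).

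Whether the diet difference itself differed between liver and kidney was tested as an interaction in 1 fit of all 14 libraries. No member passed, and 0 of 16633 genes did (0%), with 1681 at an unadjusted p under 0.05 (10.1%), while DESeq2 called 148. The lowest of the members was Cpt2, whose liver difference was lower than its kidney difference by 0.56 on the log2 scale (SE 0.32, 95% interval -1.23 to 0.12, edgeR adjusted p = 0.557). The other 7 ran from -0.45 (Acadvl) to 0.12 (Hadha), with edgeR adjusted p from 0.650 to 0.938.

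Between the tissues, in the normal diet libraries, fitted differences of the members ran from -0.75 (Acadm) to 2.76 (Acadvl) on the log2 scale. That range was wider than between the diets, but not every member followed it. Acadl was at -0.06 between the tissues, against -0.08 between the diets in liver and 0.26 in kidney. On the normal diet Acadvl, Cpt2, Hadha and Hadhb were higher in liver than in kidney, and edgeR called no member lower. DESeq2 called the same 4 higher and Acadm lower (log2 difference -0.83, adjusted p = 0.0147), beside 31.5% of all genes called lower by it. For this comparison both tissues were scaled together, and all 15688 genes tested give the background: 9171 were called (58.5%), 4699 higher in liver (30%) and 4472 lower (28.5%). The 4 of 8 members are read against these shares. Libraries of the tissues did not overlap for 5 of the 8 members, beside 60.5% of all genes.

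Acadvl was at 356.1 ± 31.9 CPM in liver and 52.5 ± 12.2 CPM in kidney (SD, n = 4 and 3), 6.78-fold higher (log2 difference 2.76, SE 0.30, edgeR adjusted p = 3.5e-05). Cpt2 was at 134.9 ± 13.9 against 31.1 ± 8.09 CPM, 4.34-fold higher (2.12, SE 0.27, edgeR adjusted p = 9.84e-05). Hadha was at 217.6 ± 15.4 against 52.4 ± 26.5 CPM, 4.15-fold higher (2.05, SE 0.35, edgeR adjusted p = 0.00065). In these 3 the lowest liver library lay well above the highest kidney library under this joint scaling. The values were 313 against 66.6 CPM for Acadvl, 120.5 against 39.9 for Cpt2 and 204 against 83.0 for Hadha. All 3 passed in all 17 alternatives. Hadhb was at 71.0 ± 9.76 against 41.3 ± 2.99 CPM, 1.72-fold higher (0.78, SE 0.22, edgeR adjusted p = 0.0110), and passed in 12 of the 17.

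Cpt1a was at 272.0 ± 107.9 against 160.0 ± 57.9 CPM with overlap (log2 difference 0.77, SE 0.38, edgeR adjusted p = 0.110). Acadl was near level, at 173.3 ± 39.8 against 180.9 ± 2.32 CPM (-0.06, 95% interval -0.66 to 0.53). Ehhadh was at 227.8 ± 90.7 against 304.6 ± 51.2 CPM (-0.42, edgeR adjusted p = 0.354). Acadm was at 273.6 ± 66.9 against 461.4 ± 97.3 CPM without overlap (-0.75, SE 0.31, edgeR adjusted p = 0.0604), and it passed in 7 of the 17 alternatives. Leaving out normal diet liver libraries 1 and 2 took Acadm to -1.11 and Cpt1a to 1.14, past the threshold for both.

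Scaling moved all of these values by about the same step. The median of all genes was 0.07 with the TMM scaling used and -0.22 with upper quartile scaling, under which Hadhb was at 0.48 (edgeR adjusted p = 0.0656) and Acadm at -1.06 (edgeR adjusted p = 0.0122). Relative to that median, Acadvl was at 2.69, Cpt2 at 2.04, Hadha at 1.98, Hadhb at 0.71, Cpt1a at 0.69, Acadl at -0.14, Ehhadh at -0.49 and Acadm at -0.83 with TMM. The tables were made separately for each tissue and their column names differ in form, so tissue and sequencing run cannot be told apart.

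The order of the members was nearly the same in the high salt libraries, which share no library with the normal diet comparison. There Acadvl was 2.31 higher in liver, Hadha 2.17, Cpt2 1.55 and Hadhb 0.67 on the log2 scale, all called (edgeR adjusted p at most 0.00379), beside 70.8% of all genes called and 37.1% called higher. Acadm, at -1.06 (SE 0.18, edgeR adjusted p = 0.000423), and Ehhadh, at -0.55 (SE 0.19, edgeR adjusted p = 0.0253), were lower in liver, beside 33.8% of genes called lower, and Acadl, at -0.42 (0.0701), and Cpt1a, at 0.46 (0.107), did not pass. With HS5 and HS6 summed, Ehhadh no longer passed (edgeR adjusted p = 0.0711) and Acadm still did (0.00273).

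**Figure D4:**
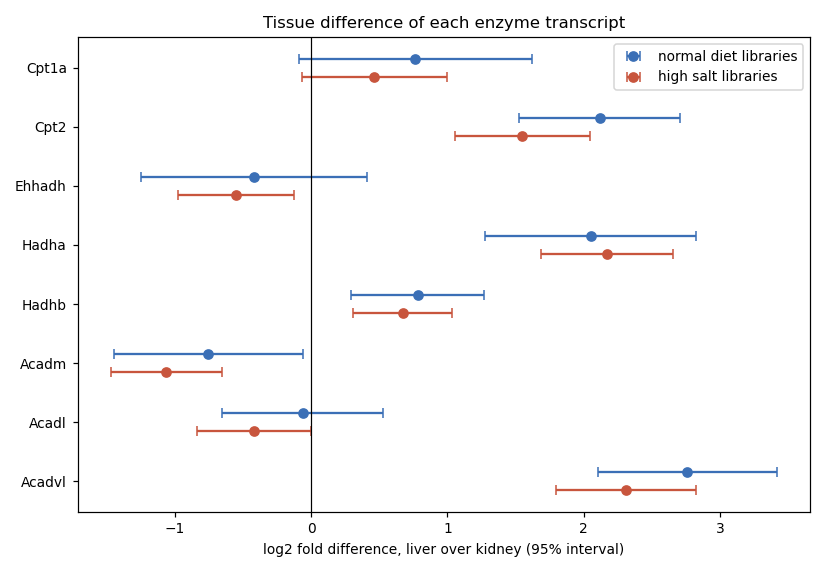
Log2 difference of liver over kidney (horizontal axis) for each transcript in the normal diet and in the high salt libraries, with 95% intervals from the edgeR fits (4 liver and 3 kidney libraries each). In both diets Acadvl, Cpt2, Hadha and Hadhb lie right of 0 and Acadm lies left of it.

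Levels of different genes were compared as CPM per kilobase of transcript, within each tissue. In normal diet liver Acadvl led, at 150.5 ± 12.9, followed by Acadm (122.4 ± 29.4), Acadl (82.8 ± 18.7), Ehhadh (69.9 ± 27.6), Cpt1a (57.8 ± 23.1), Cpt2 (52.1 ± 5.53), Hadha (49.7 ± 3.43) and Hadhb (31.7 ± 4.25). Only Hadha and Hadhb, the last pair in that order, had libraries that did not overlap. The ranges of the other neighbours overlapped. Such ranges leave out that both genes were measured in the same libraries, and no paired comparison was made. In normal diet kidney Acadm led, at 298.9 ± 55.04 CPM per kilobase, above Ehhadh (135.6 ± 19.2) and Acadl (125.7 ± 2.33), then Cpt1a (49.0 ± 16.4), Acadvl (32.1 ± 6.62), Hadhb (26.8 ± 1.32), Cpt2 (17.4 ± 4.16) and Hadha (17.2 ± 8.24). Neighbours without overlap there were Acadm and Ehhadh, Acadl and Cpt1a, and Hadhb and Cpt2. By these means per kilobase of transcript, Acadvl was first of 8 in liver and behind 4 other members in kidney. Per kilobase of coding sequence Acadm came before Acadvl in liver, Cpt1a before Ehhadh and Hadha before Cpt2. In kidney Hadhb (38.5) then came before Acadvl (35.4) and Hadha before Cpt2, and Acadm was first on either length.

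The Hadha and Hadhb proteins form 1 complex, and their transcripts stood in different proportion in the tissues. The ratio of Hadha to Hadhb CPM was 3.03, 2.61, 3.19 and 3.59 in normal diet liver and 3.85, 3.61, 2.66 and 3.69 in HS5 to HS8. In kidney it was 1.86, 0.953 and 0.927 on the normal diet and 1.38, 1.06 and 1.18 on high salt. All 8 liver libraries lay above all 6 kidney libraries, and the nearest were 2.61 and 1.86. The mean log2 ratio was higher in liver by 1.45. This difference was 1.37 to 1.58 with any 1 library left out, HS5 or HS6 among them. The ratio needs no scaling between libraries, and it was looked at after the tissue differences of both genes were known. Its tissue difference is therefore given without a p-value. Between diets the log2 ratio differed by 0.15 in liver (two-sided exact permutation p = 0.314) and by 0.03 in kidney (exact permutation p = 1), where 3 against 3 libraries cannot give less than 0.1. Acadvl to Acadm, a pair chosen after their values were seen and so not tested, stood at 1.11 to 1.75 in liver and 0.0888 to 0.142 in kidney.

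**Figure D5:**
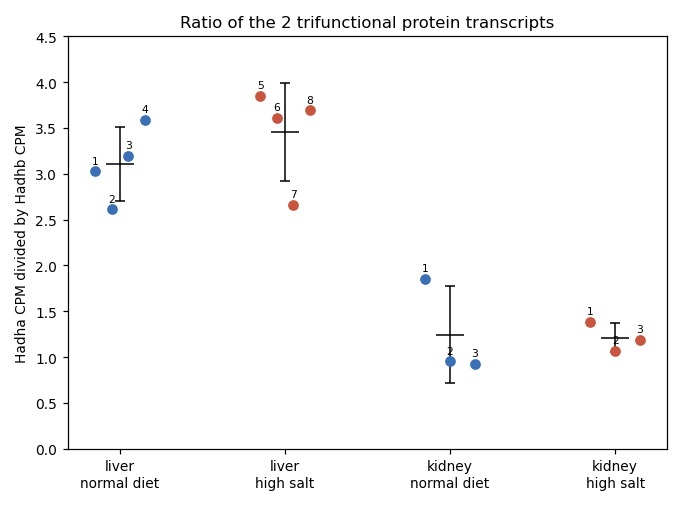
Hadha CPM divided by Hadhb CPM (vertical axis, from 0) in each library, by tissue and diet, with library numbers (5 to 8 are HS5 to HS8) and mean and SD bars. Liver libraries lie between 2.61 and 3.85, above all kidney libraries, which lie between 0.927 and 1.86.

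Counting limits some of these levels. Fractional expected counts can arise where reads are shared out between annotated features. Ehhadh counts were whole numbers in all 14 libraries, and those of Hadhb in 0. Acadm counts were whole in 0 of 8 liver and 1 of 6 kidney libraries, those of Acadvl in 3 of 8 and 0 of 6, and those of Hadha in 0 of 8 and 5 of 6. Cpt2 counts were whole in 1 of 8 and 4 of 6, those of Cpt1a in 2 of 8 and 4 of 6, and those of Acadl in 5 of 8 and 6 of 6. Acadvl overlaps Dvl2, a gene on the other strand, over 2119 bases, and whether the counting used strand is not given in the sources used here. Dvl2 had 24.4 to 36.9 CPM in liver and 3.09 to 9.92 CPM in kidney without TMM scaling, against 225 to 370 and 54.1 to 149 for Acadvl. Hadha overlaps Garem2 on the other strand over 75 bases. Acadl holds a processed pseudogene, Gm15793, on its own strand.

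Of the 6 related lists, 3 had a median above that of all genes (0.07) on the normal diet, and 3 a median below 0. The counts of calls that follow are read against 30% of all genes called higher in liver and 28.5% called lower. Of 19 other mitochondrial enzymes 11 were called higher in liver and none lower, with a median log2 difference of 0.96 (9 and 1, with a median of 0.66, under upper quartile scaling). Of 18 peroxisomal genes 13 were higher and 1 lower, with a median of 1.81 (11 and 2, with a median of 1.52). Acaa2 was higher by 4.25 (SE 0.36), Acads by 2.16 (SE 0.33), Slc25a20 by 1.91 (SE 0.28) and Ppara by 1.98 (SE 0.26), each with an edgeR adjusted p of at most 0.000364. Of 9 ketone genes 4 were higher and 4 lower in liver, with a median of -0.32. Bdh1 was higher by 2.19 (SE 0.35, edgeR adjusted p = 0.000455). Oxct1, which starts the use of ketone bodies and was picked after its value was seen, was lower by 7.86 (log2 difference -7.86, SE 0.41, edgeR adjusted p = 3.8e-07). Of 20 uptake and shuttle genes 8 were higher and 6 lower, with a median of -0.07. Cpt1b, the muscle form of the entry enzyme and picked in the same way, was at -2.69 (SE 0.74, edgeR adjusted p = 0.0101). The regulators had 11 of 17 higher and 2 lower, with a median of 2.01. Other PPAR-alpha targets had 4 of 13 higher and 4 lower, with a median of -0.24, and Pdk4 was at -2.17 (SE 0.51, edgeR adjusted p = 0.00429).

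The genes whose pattern over libraries was most like the mean of the 8 members were found by Pearson correlation of log2 CPM among genes with a mean of at least 50 counts. In liver, over 8 libraries, they were Nadk (0.96), Acaa2 (0.95), Sgtb (0.95), Glo1-ps (0.95) and Gm9800 (0.95), of 12176 genes compared. In kidney, over 6 libraries, they were Mdh2 (1.00), Qars (0.99), U2af2 (0.99), Tomm40 (0.99) and Samm50 (0.99), of 11812 genes. Acaa2, the thiolase of the mitochondrial pathway, Mdh2, malate dehydrogenase of the citric acid cycle, and Tomm40 and Samm50, parts of the import machinery of the mitochondrial outer membrane, are mitochondrial proteins. Nadk, Sgtb, Glo1-ps, Gm9800, Qars and U2af2 were not sorted in this way. The share of mitochondrial genes among all genes compared was not counted, so no common theme is drawn. With so few libraries many genes reach such values, and all share the libraries' scaling.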

How the data were processed

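Liver and kidney RNA was sequenced from SMARTer mRNA libraries, per the labels' protocols. The authors deposited expected counts per gene by the Partek E/M method, per the file headers, and a normalized signal per gene that the authors also deposited served for 1 alternative. The submitters' processing notes name Partek 7.0, STAR 2.5.3a, DESeq2 and mm10, with no role given. Unused per-sample columns numbered 0.

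Expected counts were rounded and tested with edgeR 4.0.16 in R 4.3.3 (quasi-likelihood, TMM, filterByExpr, Benjamini-Hochberg over all genes, threshold 0.05), within each tissue, with no replicate block. Interaction and tissue fits used the 17600 shared genes. CPM use TMM library sizes, except where stated, and intervals are 95%. Named genes were the 8 members, called list genes, 12 genes named whatever their p (some of them not reported here), and the most similar genes. Members, lists and alternatives were chosen with earlier results of these data known. Biological coefficients of variation, common to all genes tested, were 0.314 in liver and 0.30 in kidney. Over the 8 liver libraries those of the members' own CPM ran from 8.06% (Acadvl) to 31.7% (Cpt1a). Fits were tested on simulated data. Exact permutation tests used scipy 1.17.1. Alternatives included RLE and upper quartile scaling, DESeq2 1.42.0, limma 3.58.1 with pseudocounts of 1 and 0.1, other filters, and leaving out libraries. The human transgene was not analysed here.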

Additional observations from a re-analysis of the deposited data

Results flagged for a closer look

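Of 38 groups of 4 liver libraries checked (19 named genes in 2 diets), 2 held a library far from the other 3, and chance alone flags about 1 in 20 groups, or 1.9 of 38. Bdh1 was lowest in normal diet liver library 3, at 111 CPM, where the highest of that diet was 222 CPM. Acaca was lowest on high salt in HS7, at 106 CPM, where the highest was 139 CPM, and HS7 was still above all 4 normal diet libraries, whose highest was 50.4 CPM. No member of the 8 was set apart in this way in either diet, and groups of 3 kidney libraries were not checked.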

How the results depend on the processing

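Under 21 alternatives no liver member passed the threshold, except Ehhadh and Acadm without normal diet libraries 3 and 4, given above. The number of liver genes called moved from 152 to 1122 with DESeq2, 260 with all 14 libraries in 1 fit, 12 with HS5 and HS6 summed, 52 without normal diet libraries 1 and 2, and, chosen after seeing the data, 13 without library 4 and HS5 and HS6 summed and 6338 without libraries 3 and 4. It was 12 to 765 with 1 library left out (12 without HS6, 765 without normal diet library 3). The cause was not tested.

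Signs of log2 fold changes that did not pass in the main fit turned as follows in liver. Without normal diet libraries 1 and 2, Hadhb was at 0.091, Acadm 0.26, Acadl 0.23, Acadvl 0.0033, Bdh1 0.11, Acaa2 0.13 and Acads 0.0017. Without library 4 and with HS5 and HS6 summed, Cpt1a was at 0.027 and Ehhadh at -0.16. Without libraries 3 and 4 they were at 0.40 and -0.34, and there Ehhadh passed (edgeR adjusted p = 0.0494). With 1 library left out, Cpt1a ran from -0.31 to 0.11, Ehhadh from -0.19 to 0.22, Acadm from -0.20 to 0.043 and Acadl from -0.19 to 0.023.

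In kidney no member passed under any of 16 alternatives, and DESeq2 called 11 genes. Hadha turned to 0.0014 with upper quartile scaling and to 0.04 with limma on the deposited normalized values (0.0398 and 0.0399 with pseudocounts of 1 and 0.1). With the replicate block Hadha was at 0.047 and Slc25a20 at -0.00055, and the block called 0 genes. Kidney libraries of the same number correlated at 0.41, 0.37 and -0.09 (numbers 1 to 3, deviations from the diet means), so the numbers were not taken to pair them, and the block changed no call of a member in kidney. Over liver and kidney libraries 1 to 3 on the normal diet, a fit with the replicate block called 7738 genes. With 1 kidney library left out, the ranges that cross 0 were -0.22 to 0.45 for Hadha, -0.11 to 0.15 for Hadhb, -0.20 to 0.13 for Ppara, -0.22 to 0.15 for Slc25a20, -0.12 to 0.32 for Acaa2, -0.13 to 0.46 for Pdk4, -0.22 to 0.53 for Acaca, -0.37 to 0.15 for Acacb, -0.073 to 0.35 for Crat and -0.023 to 0.22 for Pccb.

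For the interaction, DESeq2 called 148 genes, a minimum of 10 counts in every library 2, and leaving out 1 library 0 to 7 (7 without HS7), where Ehhadh ran from -0.39 to 0.051, Hadha from -0.34 to 0.32 and Hadhb from -0.21 to 0.033. For the tissues, Acadl ran from -0.19 to 0.033 with 1 library left out, and Pccb was at -0.063 in the high salt libraries and -0.059 there with HS5 and HS6 summed.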
